A study of Mus musculus with 8 samples.

Results

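The genes described here were almost silent in resting mouse fibroblasts and were counted after 2 h of hydrogen peroxide. They were chosen by level alone. A gene was taken if its expected counts summed to 8 or less over the 4 untreated (basal) libraries and to 60 or more over the 4 peroxide libraries, both lines together. Of the 19041 genes in the table, 5310 met the first limit and 149 met both. Genes of 17 symbol families (such as Zfp, Itg and Mmp) were not taken, which left out 6 genes (Adam1b, Itgal, Itgam, Itgax, Mmp25 and Zfp819) and kept 143. These 143 were 2.69% of the genes silent at baseline.

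The cells were immortalised mouse embryonic fibroblasts (MEFs) from Stat3 fl/fl embryos, in which the floxed Stat3 gene was deleted with a retroviral Cre-Thy1.1 vector. All groups share that deletion. The deleted cells then received GFP with WT-Stat3 (-/-WT, here WT) or GFP with Stat3-C3S (-/-C3S, here C3S), a form of the transcription factor in which oxidisable cysteines are replaced. Each line was 1 polyclonal sorted population carrying a viral transgene, so the line and the transgene cannot be told apart. Cells were left untreated or given 100 µM H2O2 for 2 h, with 2 RNA-seq libraries in each of the 4 groups. Separate cultures are not stated in the labels (the study's text calls them biological replicates), so p-values measure the spread between these samples, which may be technical.

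Many genes that are silent in fibroblasts are mainly read in another tissue, for example in neurons, muscle, sperm or leukocytes. Elsewhere such genes are generally kept off by closed chromatin and by the absence of the factors that activate them. Neither was tested for the genes described here. Hydrogen peroxide is a diffusible oxidant that activates stress kinases and transcription factors within minutes. RNA-seq of this kind counts reads that lie on the exons of a gene, and it does not record where the transcript that carries them began.

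Library totals ran from 17050016 to 22260814 expected counts. Expected counts are estimated read counts that need not be whole, and 62 of the 143 genes had at least 1 count that was not. Fpr2, Lgals4, Gal3st2, Nlrp3, Il17f and Scn4a, described below, are among these. The chosen genes together held 6.49 and 7.24 CPM (counts scaled to the library total) in the WT basal libraries and 4.28 and 5.02 in the C3S basal libraries. After H2O2 they held 225 and 230 CPM in WT cells and 171 and 171 in C3S cells. The peroxide libraries stood far above the basal libraries in both lines, as the rule requires. The WT libraries stood above the C3S libraries in each condition, as they did for all genes silent at baseline, summed below. Fewer cells with a transcript and less transcript per cell cannot be told apart in such bulk samples. Summed fibroblast markers were between 211695 and 277430 normalised counts in every library, with all 11 measured markers above 0. Normalised counts are counts divided by the size factor of the library. Leukocyte markers summed to 26.6 to 61.0 in the basal libraries and 199 to 240 in the H2O2 libraries. Cd4 was at 0 in all basal libraries and Ms4a1 was at 0 in all H2O2 libraries. Cd79a is a chosen gene, and Itgam and Itgax met both limits of the rule, so much of that rise restates the choice. Without these 3, the markers summed to 22.8 to 59 in the basal and 59.3 to 102 in the H2O2 libraries. Epithelial markers, led by Krt14 and Cdh1, differed by line, from 339 to 352 in WT and 42.2 to 53.3 in C3S basal libraries and from 417 to 486 and 63.8 to 79.0 after H2O2. Germ cell markers, nearly all Ddx4, were at 499.6 to 655.7 in WT and 3.79 to 12.3 in C3S libraries over both treatments. Neuron markers, mostly Tubb3, summed to 149 to 175 in WT and 55.2 to 57.1 in C3S basal libraries and to 305 to 347 and 216 to 227 after H2O2. Epithelial and germ cell sums were lower in C3S cells, as were some epidermal and germ-cell genes below. The epithelial marker Krt10 was higher in the C3S basal libraries (29.0 and 18.0) than in the WT basal libraries (14.0 and 11.8). Within WT cells the germ cell sum was 642.4 to 655.7 in the basal and 499.6 to 540.2 in the H2O2 libraries. The neuron sum was also lower in C3S cells, while chosen neuronal genes went either way, with Slc8a2 and Elavl3 higher there. The part of such cells in those results was not tested.

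The increase with H2O2 is what chose the genes, so it is given as a description. At baseline, 22 genes had no count in any of the 4 libraries, for which the limit is 3 counts over the group, and the median basal sum was 3. After H2O2 the sums ran from 60 to 486 with a median of 92. Every one of the 143 genes had at least 1 count in each H2O2 library, and 140 had every H2O2 count above every basal count. By the edgeR rule used below (adjusted p under 0.05 and at least 2-fold), 142 stood higher after H2O2 in the WT line and 139 in the C3S line. Of all 13538 genes tested, 7.59% did so in the WT line and 7.17% in the C3S line. The levels remained low. Per kilobase of exon, the median chosen gene had 7.34 normalised counts in WT H2O2 cells and 5.70 in C3S H2O2 cells, against 95.7 and 93.2 for all tested genes with a position.

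**Figure D1:**
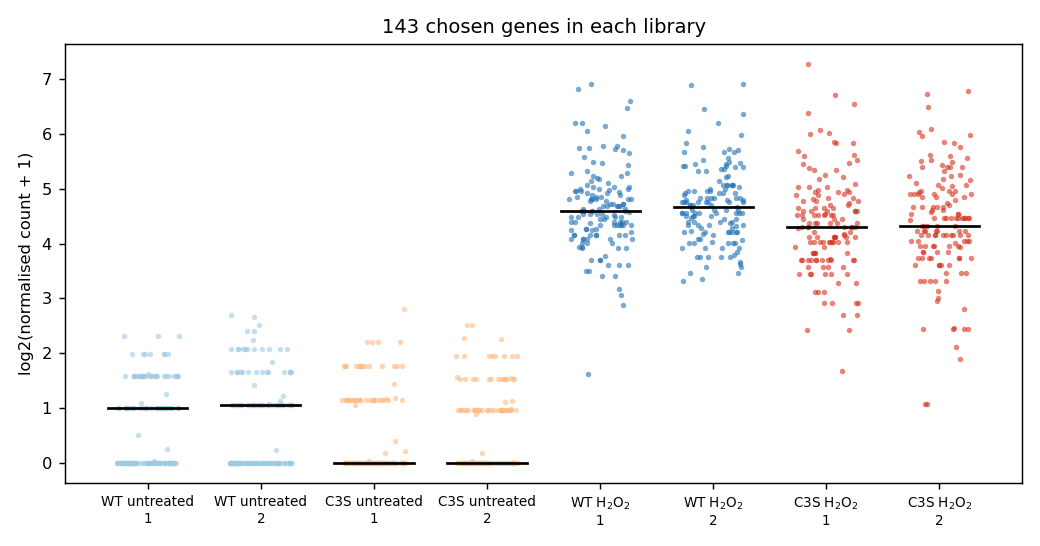
Normalised counts of the 143 chosen genes in each library, as log2(count + 1), with 1 point for each gene and a line at the median. The H2O2 libraries of both lines lie above the basal libraries, which follows from how the genes were chosen, and the WT H2O2 medians lie above the C3S H2O2 medians.

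The limits cut through a continuous range. Of the silent genes, 3119 had an H2O2 sum of 0.5 to 10, 938 of 10 to 30, 238 of 30 to 60, and 149 of 60 or more. Just inside the H2O2 limit were Stmn4 (a sum of 60 counts), Mospd4 (60.01) and Tnfrsf13c (60.3). Just outside it were Gm15319 (59.6), 4933433G15Rik (59.1) and Gdap1l1 (59). At the basal limit, Npc1l1, Slc17a7 and Sez6l2 were inside with a basal sum of 8, and Abcg4 (8.001), Scml4 (8.11) and Rdh9 (8.60) were outside. The sum over all silent genes was 125 and 125 CPM in the WT basal and 90.2 and 93.4 in the C3S basal libraries. After H2O2 it was 742 and 770 in the WT and 540 and 575 in the C3S libraries.

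The 250 bases before the start of 5 of the genes are shown. These genes are discussed by name below and have no expressed gene ending within 10 kb before them on their strand. Other genes named below also meet this and are not shown. Scn4a is among them, and its window held no match to the motifs marked here. The sequences shown are from RefSeq on GRCm38.p6, written 5′ to 3′, and end at the base before the start of the RefSeq transcript. Capitals mark a TATA box (TATAAA) or the core of a hypoxia response element (HRE core, ACGTG or GCGTG) on either strand. The whole Il17f window lies inside the longer gene model of GENCODE. The Asprv1 window ends inside its GENCODE gene, and the Nlrp3 window ends at the first base of its own.
Il17f upstream, chr1:20784271-20784520, minus strand: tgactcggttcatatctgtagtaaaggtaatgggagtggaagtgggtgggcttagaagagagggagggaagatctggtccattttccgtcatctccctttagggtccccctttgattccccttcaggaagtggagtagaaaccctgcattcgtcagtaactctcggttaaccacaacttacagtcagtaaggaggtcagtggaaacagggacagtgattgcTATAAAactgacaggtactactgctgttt
Asprv1 upstream, chr6:86627924-86628173, plus strand: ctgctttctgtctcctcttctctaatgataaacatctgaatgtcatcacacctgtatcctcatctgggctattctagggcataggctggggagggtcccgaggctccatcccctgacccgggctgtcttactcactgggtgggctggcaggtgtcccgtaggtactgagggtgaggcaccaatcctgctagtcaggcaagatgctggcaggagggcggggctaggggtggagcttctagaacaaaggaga
Nlrp3 upstream, chr11:59541319-59541568, plus strand: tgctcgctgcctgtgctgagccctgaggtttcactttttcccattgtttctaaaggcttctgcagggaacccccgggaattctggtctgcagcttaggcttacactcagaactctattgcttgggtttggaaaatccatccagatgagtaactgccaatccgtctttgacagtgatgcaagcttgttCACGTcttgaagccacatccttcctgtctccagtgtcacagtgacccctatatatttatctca
Fpr2 upstream, chr17:17887574-17887823, plus strand: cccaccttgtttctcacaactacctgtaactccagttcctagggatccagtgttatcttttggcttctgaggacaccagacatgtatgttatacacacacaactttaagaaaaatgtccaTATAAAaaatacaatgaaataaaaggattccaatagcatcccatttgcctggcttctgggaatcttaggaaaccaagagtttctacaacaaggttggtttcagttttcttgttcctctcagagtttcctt
Npc1l1 upstream, chr11:6230246-6230495, minus strand: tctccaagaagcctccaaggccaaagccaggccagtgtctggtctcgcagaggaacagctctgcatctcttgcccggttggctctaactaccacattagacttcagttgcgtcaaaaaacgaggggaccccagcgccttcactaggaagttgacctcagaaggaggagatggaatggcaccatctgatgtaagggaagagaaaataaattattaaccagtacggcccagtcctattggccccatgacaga
The capitals mark a TATA box 29 bases before the start of Il17f and 130 bases before that of Fpr2, and an HRE core on the other strand 63 bases before the start of Nlrp3. No capitals fall in the windows of Asprv1 and Npc1l1.

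Promoters of the chosen genes held the searched motifs at about the share found in promoters in general. RefSeq windows of 300 bases (250 before and 50 after the start) were found for 99 of the 143 genes, 116 windows in all. The HRE core was in 46.6% of these windows, against 43.8% of all 32851 promoter windows and 37.1% of those of the other silent genes. A TATA box was in 14.7%, against 13.6% of all and 15.1% of the other silent genes. The AP-1 site TGANTCA, bound by Fos and Jun proteins, was in 6.90%, against 7.81% and 10.3%. The Stat site TTCCNGGAA (SIE) was in 0 of the 116 windows and in 1.15% of all promoters. The antioxidant response element (ARE), whose letters contain the AP-1 site, was in 0 windows and in 0.268% of all promoters. Both strands were searched, a match is a description of letters, and no match says only that these letters are not in the window.

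The chosen genes differed from other silent genes in position. Under heat, salt and oxidative stress, RNA polymerase II is known to run past the ends of many genes, and the transcript can then continue into the next gene on the same strand. A position could be given to 141 of the 143 genes (GENCODE M21, GRCm38), with 9830166K06Rik and D630041G03Rik unplaced. Of the 141, 57 (40.4%, exact 95% interval 32.3 to 49.0%) began within 10 kb after the end of a gene that is expressed and has the same strand. A gene was taken as expressed if its normalised counts averaged 100 or more over the basal libraries. Among 5042 other silent genes the share was 6.84% (6.16 to 7.57%). A further 4 chosen genes (Amy1, Prn, Trpc2 and Cuzd1) overlapped an expressed gene on the same strand, and their reads cannot be assigned with certainty. Of the remaining placed genes, 7 overlapped an expressed gene on the other strand, and such overlap among the 57 was not counted. Whether the counting used the strand is not given in the sources used here.

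The share depended on the strand and side of the expressed gene. For this comparison, chosen after the data were seen, the genes overlapping on the same strand were left out, so that 137 chosen and 4876 other silent genes remained. An expressed gene ended within 10 kb before the start on the same strand for 41.6% of the chosen genes and 7.08% of the others. On the same strand but after the end, the shares were 14.6% and 6.85%. On the other strand they were 8.03% and 5.599% for an expressed gene lying before the start, and 9.49% and 9.64% for one lying after the end. Within 50 kb before the start on the same strand, the shares were 83.2% and 23.6%. The median distance to the nearest such gene was 12.8 kb for chosen genes and 189 kb for the others.

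The same holds when silent genes are grouped by their distance from an expressed gene. Among silent genes with an expressed gene ending 5 to 10 kb before them on the same strand, 16.5% (32 of 194, exact 95% interval 11.6 to 22.5%) were chosen. At 20 to 50 kb the share was 4.93% (28 of 568, 3.30 to 7.05%). Beyond 100 kb it was 0.353% (11 of 3115, 0.176 to 0.631%). The share was highest between 5 and 10 kb and fell with distance beyond that, while the intervals of the 3 nearest bins overlapped. Where the expressed gene lay within 10 kb, 9.94% of silent genes were chosen if its basal level was 100 to 500 normalised counts, 14.9% at 500 to 2000, and 22.9% above 2000, with overlapping intervals.

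**Figure D2:**
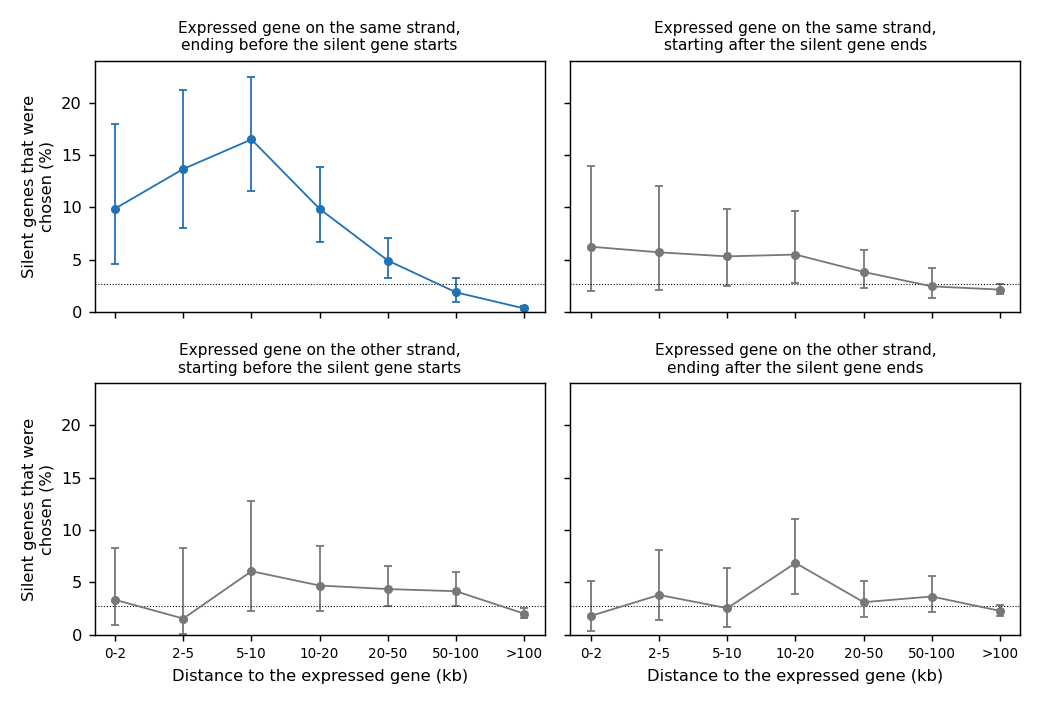
Percent of silent genes that were chosen (y axis) by distance in kb to the nearest expressed gene (x axis), for the 4 arrangements of strand and side, with exact 95% intervals and a dotted line at 2.69%, the share over all silent genes. In the panel with the expressed gene ending before the start on the same strand, the share is 16.5% at 5 to 10 kb and 0.353% beyond 100 kb, a range that the other panels do not show.

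The expressed genes before the chosen genes were mostly at the same level with and without H2O2. The 57 neighbours within 10 kb had a median log2 difference of -0.01 (H2O2 against basal) for the WT line and -0.05 for the C3S line, and 53 and 52 of them were within 0.5 of 0. By the edgeR rule, 2 were called higher for WT, 1 for C3S, and 0 lower in either line. Atf3, a stress-induced transcription factor that lies 5479 bp before Fam71a, stood 1.99 (log2) higher in WT and 3.57 higher in C3S cells. The chosen gene had a median of 2.95% of the normalised count of its neighbour in WT H2O2 cells and 2.30% in C3S H2O2 cells, against 0.0785% and 0.0576% in basal cells. With neighbours at a steady level, this rise restates the choice of the genes.

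Some pairs were very near each other. Ccdc169 began 17 bp after the end of Spg20 (spartin, a protein of endosomes and lipid droplets). Tmem95, a sperm membrane protein, began 243 bp after Kctd11, and Ccdc11, a cilium protein, 358 bp after Mbd1, which binds methylated DNA. Dnah17, a dynein heavy chain of the sperm tail, began 1385 bp after Cyth1, Cmya5 (myospryn of muscle) 1558 bp after Papd4, and Lgals4 (galectin-4 of the gut) 1607 bp after Ech1. Whether the reads over the exons of these genes came from transcripts begun at the genes themselves was not tested, since the table holds no reads between genes.

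The rule summed both lines after H2O2, so it did not ask for a difference between them. A gene could still pass through 1 line alone, and its line difference is then in part a result of the choice. The rule also used unscaled counts, and the WT H2O2 libraries were deeper (size factors 1.25 and 1.19, against 0.910 and 0.894 for C3S). Genes high in WT cells therefore passed more easily. Counts and medians over the chosen genes are therefore descriptions. By the quasi-likelihood test of edgeR on the 4 H2O2 libraries, with p-values adjusted over 13538 genes, 25 of the 143 genes were lower in C3S cells and 7 were higher. Of all genes tested, 10.6% were lower and 7.83% higher, 18.5% in either direction, so the 32 calls (22.4%) are a share near the background. The median log2 difference of the 143 genes was -0.20, against -0.02 for all tested genes, and 90 (62.9%) were below 0, against 51.2% of all. Normalised counts of the 2 lines did not overlap, with WT above, for 59 genes (41.3%, against 41.5% of all tested), and with C3S above for 25 (17.5%, against 39.7%). With library totals in place of size factors, 34 were lower and 4 higher, as that scaling shifts every difference by -0.18. Of the 143 genes, 47 had under 30 counts in the C3S H2O2 libraries and passed mainly through WT cells, and these held 21 of the 25 lower calls. Among these 21 are Nlrp3, Il17f, Asprv1, Scn4a, Gm9573 and Acap1, so the choice favoured the line differences given for them below. A further 6 had under 30 counts in the WT H2O2 libraries and held 3 of the 7 higher calls, those of Myo5c, Gpr62 and Gm9731. Among the 90 genes with at least 30 counts in each line, a limit that itself leaves out large differences, 4 were lower and 4 higher, with a median of -0.03. With the rule on counts divided by size factors, 19 of 123 genes were lower and 7 higher. These groupings were chosen after the data were seen.

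**Figure D3:**
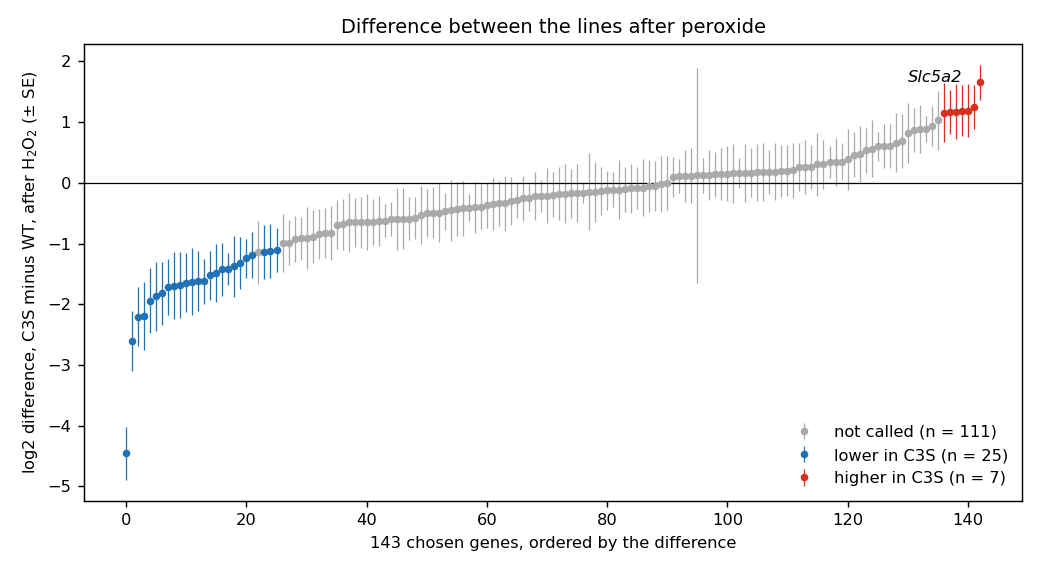
Log2 difference between C3S and WT cells after H2O2 for the 143 chosen genes in order, with standard errors; blue and red points are the genes called lower (25) and higher (7) in C3S cells. Slc5a2 is highest in C3S cells at 1.66, and the widest error bar belongs to Trpc2, whose reads overlap another gene.

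Where a gene called higher in C3S cells had an expressed neighbour within 10 kb, that neighbour was above 0 as well. Slc5a2, the kidney glucose transporter SGLT2, had 22.4 and 23.5 normalised counts in WT H2O2 and 82.4 and 62.6 in C3S H2O2 libraries. The lines did not overlap, and the log2 difference was 1.66 (SE 0.29, edgeR adjusted p = 1.23e-06). Tgfb1i1, a focal adhesion protein gene that ends 9958 bp before Slc5a2, differed by 1.06 (SE 0.0492). Myo5c, a myosin of glandular epithelium, differed by 1.17 (SE 0.45, adjusted p = 0.021), and Myo5a before it by 1.18. Gpr62, an orphan receptor, differed by 1.15 (SE 0.49, adjusted p = 0.035), and Parp3 before it by 0.94. All 3 genes and their neighbours were higher in C3S cells, but the calls of Myo5c and Gpr62 were lost with DESeq2, with library totals and without some libraries, with edgeR or DESeq2 adjusted p from 0.017 to 0.255 for Myo5c and 0.035 to 0.171 for Gpr62.

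Among the 25 genes called lower in C3S cells, 13 had an expressed neighbour within 10 kb, and 12 of these neighbours were also below 0, with a median log2 difference of -0.53 over the 13, though only 1 was itself called lower. The exception was Tub, at -1.37, whose neighbour Eif3f stood at 0.18. All 3 neighbours of genes called higher were above 0, and 2 were called higher. Among the 111 genes not called, 41 had such a neighbour, of which 18 were below and 23 above 0. Over the 57 pairs, the line difference of a chosen gene and that of its neighbour had a Pearson r of 0.76 and a Spearman rho of 0.60, and without the 1 pair farthest from the others 0.62 and 0.58. For 57 pairs 10 to 50 kb apart the values were 0.25 and 0.40, and for 23 pairs over 50 kb apart 0.36 and 0.17. Both differences had the same sign in 40 of 57 pairs (70.2%) within 10 kb, in as many at 10 to 50 kb, and in 11 of 23 (47.8%) beyond 50 kb. These are descriptions across genes of the same 4 libraries, and genes are not independent replicates.

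**Figure D4:**
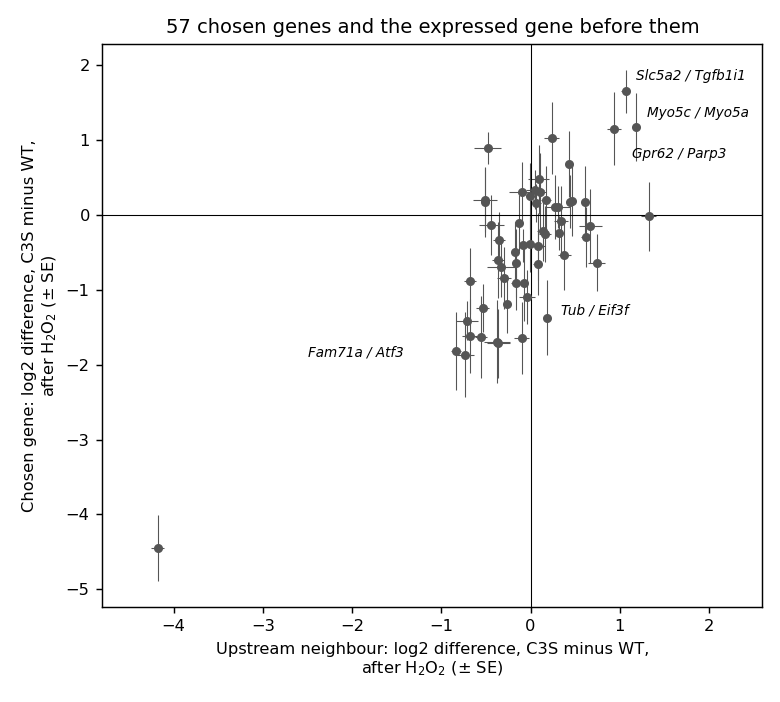
Log2 difference between C3S and WT cells after H2O2 in the expressed neighbour (x axis) and in the chosen gene that begins within 10 kb after it on the same strand (y axis), for 57 pairs, with standard errors. The 3 pairs whose chosen gene was called higher in C3S cells, among them Slc5a2 and Tgfb1i1, lie at the upper right, and 1 pair lies far from the others.

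Some of the genes lower in C3S cells had no expressed gene ending within 10 kb before them. Nlrp3, the inflammasome sensor of myeloid cells, at chr11:59541568-59566956 on the plus strand, had 0 normalised counts in all 4 basal libraries, 32.8 and 41.3 in WT H2O2 and 13.2 and 12.3 in C3S H2O2 libraries. The lines did not overlap, and the log2 difference was -1.52 (SE 0.40, edgeR adjusted p = 0.000875). The nearest expressed gene before it on its strand, Jmjd4, ends 83001 bp away.

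Il17f, a cytokine of T helper cells that recruits neutrophils, lies at chr1:20777146-20790617 on the minus strand. It had 0.994 and 0 normalised counts in WT basal, 1.21 and 0.947 in C3S basal, 35.1 and 27.6 in WT H2O2, and 6.59 and 16.8 in C3S H2O2 libraries. Both WT values were above both C3S values, which were spread widely. The log2 difference was -1.42 (SE 0.44, edgeR adjusted p = 0.00388). Mcm3, a replication gene ending 12351 bp before it, stood at 0.14. The call of Il17f was lost with DESeq2, without WT_H2O2 replicate 1 and without C3S_H2O2 replicate 1, with adjusted p from 0.000722 to 0.105 over the settings tried with edgeR or DESeq2.

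Asprv1, a protease of the cornifying epidermis, had 21.6 and 42.8 normalised counts in WT H2O2 and 9.89 and 15.7 in C3S H2O2 libraries. At baseline it had 0 and 1.07 in WT and 2.41 and 0.947 in C3S cells. After H2O2 every WT value was above both C3S values, and the log2 difference was -1.32 (SE 0.43, edgeR adjusted p = 0.00671). That call was lost with DESeq2, without WT_H2O2 replicate 2 and without C3S_H2O2 replicate 1 (adjusted p from 0.00214 to 0.277 over the settings tried).

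Scn4a, the sodium channel of skeletal muscle, had 51.9 and 40.2 normalised counts in WT H2O2 and 19.8 and 10.1 in C3S H2O2 libraries, and 0 in every basal library. The lines did not overlap, and the log2 difference was -1.62 (SE 0.37, edgeR adjusted p = 0.000139). The predicted gene Gm9573 had 36.7 and 31.9 in WT and 6.59 and 4.47 in C3S H2O2 libraries, a log2 difference of -2.61 (SE 0.49, adjusted p = 6.4e-06). Acap1, an Arf GTPase-activating protein of leukocytes, had 34.3 and 27.7 in WT and 8.79 and 4.47 in C3S H2O2 libraries. All 3 had both WT libraries above both C3S libraries, and the difference of Acap1 was -2.20 (SE 0.49, edgeR adjusted p = 8.71e-05).

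Further genes called lower had log2 differences from -2.19 to -1.10, among them Zbtb32 (-2.19), a repressor of lymphocytes, Lrrc23 (-1.94), a sperm tail protein, and Asic4 (-1.87), of the acid-sensing channel family. Fam71a stood at -1.82 and Lgals4 at -1.71. Lgals4 was the only chosen gene also called between the lines at baseline (15.4% of tested genes), where it was lower in C3S cells. That baseline call rests on few counts, 3.98 and 3.21 normalised in WT and 0 and 2.06e-10 in C3S libraries. The reads of Lgals4 and of Gal3st2 may be shared with similar genes, as their counts are not whole. Gal3st2 (-1.69) is a galactose sulphotransferase, and Tdrd6 (-1.68) and Piwil2 (-1.24) are germ-cell proteins of the piRNA pathway. Gpr152 (-1.64) is an orphan receptor, Cyp27a1 (-1.63) a sterol hydroxylase and Alox15 (-1.12) a lipoxygenase. The protein 2610528A11Rik stood at -1.19, with 36.7 and 39.4 normalised counts in WT H2O2 and 12.1 and 21.2 in C3S H2O2 libraries. Apart from Piwil2 and 2610528A11Rik, the genes named here had under 30 counts in the C3S H2O2 libraries, so the choice favoured their differences. Of these calls, only that of Gpr152 held in all 12 settings tried. Those of Asic4, Gal3st2, Tdrd6, Cyp27a1, Alox15 and 2610528A11Rik were lost with DESeq2, and the others when 1 library was left out.

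Fpr2, the formyl peptide receptor of neutrophils, was higher in C3S cells with no expressed gene near. It had 25.4 and 11.7 normalised counts in WT H2O2, 45.1 and 45.0 in C3S H2O2, and at most 0.994 in any basal library. The lines did not overlap, and the log2 difference was 1.25 (SE 0.36, edgeR adjusted p = 0.00216). The call was lost without WT_H2O2 replicate 2 (adjusted p from 0.000823 to 0.0773 over the settings tried). The membrane mucin Muc4 (1.16), the peroxide-generating oxidase Duox2 (1.19) and the pseudogene Gm9731 (1.19) were also higher. The calls of Duox2 and Gm9731 were lost with DESeq2, and that of Muc4 with library totals. Fpr2, Duox2 and Gm9731 have counts that are not whole, so that their reads may be shared with similar genes.

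**Figure D5:**
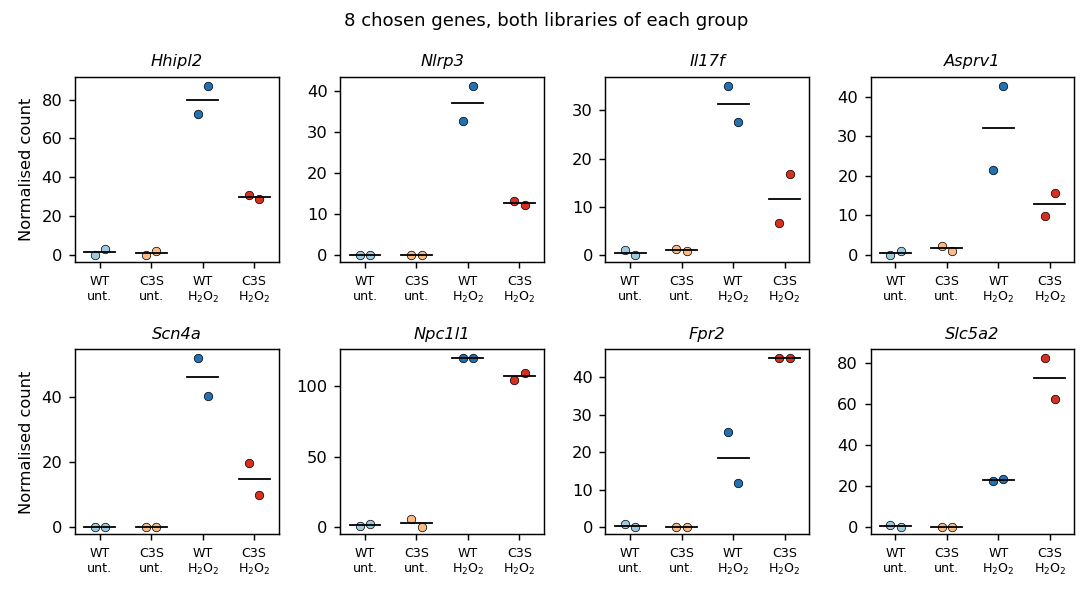
Normalised counts of 8 chosen genes in both libraries of each group (points) with the group mean (line), on linear axes that differ between panels. All 8 are near 0 without H2O2; Hhipl2, Nlrp3, Il17f, Asprv1 and Scn4a are lower and Fpr2 and Slc5a2 higher in C3S cells after H2O2, and Npc1l1 was not called.

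In all 12 settings tried, 8 calls held, among them those of Gm9573, Acap1, Gpr152, Scn4a, Nlrp3, Hhipl2 and Slc5a2, and the other 24 calls were lost in at least 1 of them. DESeq2 called 15 of the 32 genes (12 lower, 3 higher). Hhipl2, a relative of the Hedgehog-binding protein Hhip, had 72.7 and 87.2 normalised counts in WT H2O2 and 30.8 and 29.1 in C3S H2O2 libraries. Its log2 difference was -1.41 (SE 0.26, edgeR adjusted p = 5.11e-06), and that of Taf1a, which ends 8017 bp before it, was -0.71.

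The response to H2O2 itself did not differ detectably between the lines for these genes. The interaction of line and treatment in edgeR, over all 8 libraries, was called for 0 of the 143 genes (1.4% of all genes tested), with 6 at an unadjusted p under 0.05 (25.2% of all), and for 0 with DESeq2. The basal counts were near 0 in both lines, so that the fitted differences were wide, from -4.62 to 5.01 on the log2 scale. A difference at this depth was not detectable, which does not show that the responses were alike.

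Of the 12 most abundant chosen genes, Hhipl2 alone was called between the lines after H2O2 by the edgeR rule, which called 18.5% of all genes tested. Npc1l1, the transporter of intestinal cholesterol uptake, had 120 and 120 normalised counts in WT H2O2 and 104 and 110 in C3S H2O2 libraries. At baseline it had 0.994 and 2.14 in WT and 6.03 and 0 in C3S libraries. WT stood just above C3S after H2O2, and the log2 difference was -0.16 (SE 0.17, edgeR adjusted p = 0.408). Ddx56, the nearest expressed gene before it, ends 28776 bp away.

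Slc8a2, a sodium-calcium exchanger of neurons, had 54.3 and 52.0 normalised counts in WT H2O2 and 92.3 and 105 in C3S H2O2 libraries, with at most 1.99 at baseline. Its log2 difference of 0.89 (SE 0.21, edgeR adjusted p = 0.000265) was under the 2-fold limit. Kptn, which ends 2310 bp before Slc8a2, went the other way at -0.48, and Slc8a2 stood at 76.9% of the Kptn count in C3S H2O2 cells, the highest share of the 57 pairs. Cd79a, a subunit of the B-cell receptor, had 72.7 and 72.9 in WT and 56.0 and 67.1 in C3S H2O2 libraries, a log2 difference of -0.24 (SE 0.22, adjusted p = 0.352). It begins 7575 bp after Rps19. L3mbtl1, a chromatin reader, had 95.9 and 65.4 in WT and 57.1 and 64.9 in C3S H2O2 libraries, and here the lines nearly met. Myh3, the embryonic myosin heavy chain, was at 0 in all basal libraries and had 52.7, 62.0, 31.9 and 42.5 in the H2O2 libraries, WT first, a log2 difference of -0.62 (edgeR adjusted p = 0.0417). Elavl3, an RNA-binding protein of neurons, differed by 0.60 (edgeR adjusted p = 0.0232), under the 2-fold limit. Slc17a7 (the vesicular glutamate transporter, at 0.34), Zc3h12d (an RNase of the regnase family, at 0.16) and Amy1 (salivary amylase, at -0.21) were not called. Gm13275 had 112 and 118 in WT and 155 and 53.1 in C3S H2O2 libraries, and it and 4930467E23Rik have counts that are not whole, so that their reads may be shared with near-identical copies.

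Among genes with at least 100 counts, 6 had the smallest difference between the lines, with log2 values from -0.12 to 0.11. Ovol1, an epithelial transcription factor, had 31.2 and 30.2 normalised counts in WT H2O2 and 29.7 and 27.96 in C3S H2O2 libraries. Fam19a3, a chemokine-like secreted protein, had 38.3 and 32.7 in WT and 33.0 and 32.4 in C3S H2O2 libraries. The others were Catsperd, a subunit of the sperm calcium channel, Celsr3, a cadherin of axon guidance, Endou, an endoribonuclease, and Tmem116. Their standard errors were 0.28 to 0.37, so differences of that size could not be seen.

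By function, 44 of the 143 genes were on at least 1 of 15 lists of tissue or protein class. Innate sensors gave 4 of their 15 silent genes (26.7%, against 2.69% of all silent genes). Besides Nlrp3, these were Tlr13, a sensor of bacterial ribosomal RNA in mice, Zbp1, a sensor of Z-form nucleic acids, and Nlrp6, and these 3 were not called between the lines. Of the 20 tested genes on the list, 8 were lower and 2 higher in C3S cells after H2O2, with a median log2 difference of -0.68 against -0.02 for all genes, of which 10.6% were lower and 7.83% higher. Skin proteins of the cornified envelope gave 2 of 18 silent genes (11.1%), Asprv1 and the kallikrein Klk14, and of its 12 tested genes 4 were lower and 0 higher in C3S cells, with a median of -0.89. Eye and ear genes gave 4 of 37 (10.8%), among them Tecta and Otop1 of the inner ear, and neuron and synapse genes gave 4 of 38 (10.5%), among them Cplx1 and Nrxn2.

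Skeletal muscle genes gave 3 of 34 silent genes (8.82%), among them Myh3 and Klhl40. Liver and plasma proteins gave 2 of 28 (7.14%), Npc1l1 and coagulation factor F12. Ion channels gave 6 of 134 (4.48%), among them Scn4a, Catsperd, Trpm2, Trpc2 and Asic4, and transporters 5 of 127 (3.94%). G protein-coupled receptors gave 6 of 266 (2.26%), among them the complement receptor C5ar1, Fpr2 and Mc5r. Leukocyte markers gave 1 of 40 (2.50%), Cd79a, interleukins and Tnf ligands 1 of 28 (3.57%), Il17f, and their receptors 1 of 16 (6.25%), Tnfrsf13c. Genes of cilia and sperm gave 3 of 68 (4.41%), claudins and cadherins 2 of 61 (3.28%), and cytochromes P450 1 of 57 (1.75%). These shares are descriptions and were not tested.

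Of the 141 with a position, 134 (95.04%) were protein coding, against 82.1% of other silent genes, with a median of 10 exon blocks against 6, and 13 (9.22%) had a single exon against 10.2%. The median gene spanned 17136 bp against 12966 bp. The 2 WT H2O2 libraries differed by more than 3-fold for 2 genes (Tas2r143 and Trpc2), and the 2 C3S H2O2 libraries for 6 (among them Asic4, Baat, Cyp27a1, Gal3st2 and Trpc2).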

How the data were processed

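RNA-seq was made from 8 libraries of single-end reads with a directional kit. According to the methods of the study, the authors used Scythe and Sickle for trimming, aligned reads with TopHat2 2.0.10 to mm10 and counted unique reads over exons. The counting program is not given in the sources used here. The deposited table holds expected counts, estimated per gene by the authors. Of the values above 0, 58.4% are whole, and how the others arose from unique reads is not given. The authors' means and SDs per group were not used. In 27 rows (0.28% of counts) the gene name had been turned into a date number, and these could not be named.

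Expected counts were rounded and scaled by median-of-ratios size factors. Genes with a group mean of at least 10 (13538) were tested with the quasi-likelihood test of edgeR 4.0.16 in R 4.3.3, with Benjamini-Hochberg adjustment. The SE is the log2 difference divided by the square root of F. DESeq2 1.42.0 was an alternative, beside other scalings, filters, a replicate block and leaving out libraries. The code was tested on simulated data. Genes were placed with GENCODE M21 and promoters taken from RefSeq. Intervals are exact binomial at 95% and, like the floor of 3 counts, cover counting error only.

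The genes and lists were chosen with earlier results of these data known. Genes named are the 12 highest sums, the 10 largest called falls and rises, the 6 smallest line differences, up to 5 for each list, those the study names as induced, the 8 nearest to an expressed gene, and those at the limits. Other genes named among the calls, the neighbours of called genes, and genes whose replicates differ were chosen after their values were seen. Some of the genes that this rule takes are not reported here.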

Additional observations from a re-analysis of the deposited data

How the results depend on the processing

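The 32 genes called between the lines after H2O2 were 15 with DESeq2, 18 to 29 when 1 library was left out (18 without WT_H2O2 replicate 2), and 32 to 41 with the other scalings, filters and fits. With 1 library in an arm, that library is assumed to vary like the others. Among the genes with at least 30 counts in each line, 8 were called. No called gene changed sign. The interaction was called for 0 to 1 genes when 1 library was left out, and otherwise for 0. Replicates of the same number did not deviate together (correlations from -0.009 to 0.03), so they share only a number, and a replicate block gave 32 and 0 calls. The 143 chosen genes would be 231 with a basal limit of 16, 376 with an H2O2 limit of 30 and 40 with one of 120. The genes after an expressed neighbour were 25 within 5 kb, 86 within 20 kb and 114 within 50 kb. With the H2O2 limit at 30 or 120, chosen after the data were seen, 31.5% and 35% of the genes were within 10 kb. Motif counts in the 250 bases before the start alone differed little from those in the whole window. Low counts limit the precision of single genes. In each C3S H2O2 library 122 of the 143 genes had at least 10 counts, and several of the genes called lower had fewer.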
